A study of Homo sapiens with 12 samples.

Results

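Heavy polysomal (HP) RNA was compared with total RNA in HCT116 cells, an established human colorectal carcinoma line, after transfection of a control siRNA, to list the mRNAs and noncoding RNAs that are rich or poor in heavy polysomes. The comparison used 6 of the 12 libraries of the series, namely 3 of total RNA and 3 of HP RNA, and each HP library was paired with the total RNA library of the same experiment. All cells were of the genotype labelled wild-type and were transfected for 48 h with an siRNA, so the control cells were also transfected. The other 6 libraries came from cells given an siRNA against hnRNP U (total RNA, n = 3, and HP RNA, n = 3), and they served here to measure the same ratio in other cultures and to test whether it differed between the siRNAs. The cells were treated with cycloheximide, which holds ribosomes on the mRNA, the lysate was cleared by centrifugation, and HP RNA came from the heaviest polysomal fractions of a sucrose gradient. All libraries were poly(A)-selected, so RNAs without a poly(A) tail were captured poorly in both kinds of library.

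An mRNA that is being translated carries several ribosomes at once and sinks in a sucrose gradient according to their number, while RNAs without ribosomes stay near the top. The number of ribosomes an mRNA can hold is limited by the length of its coding sequence, and it is lowered when initiation is slow, for example when an upstream start codon captures the ribosome or a repressor protein covers the 5′ UTR. The ratio of HP RNA to total RNA therefore reports how much of a transcript sits in the heaviest polysomes and not how much protein is made.

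Total counts per library ranged from 30305012 to 39761103. After a minimum of 10 counts, 14990 of 62703 genes were tested, 14988 of which had an entry in GENCODE 44. The epithelial identity of the cells was visible in 10 of 15 epithelial markers that passed the filter, with a summed level of 4279 to 4454 CPM (counts scaled to the size of the library by TMM) in total RNA and 7067 to 7336 CPM in HP RNA, although CDX1 and CEACAM5 were at 0 in all 6 libraries. The 16 markers of fibroblasts, endothelium and leukocytes summed to 17.3 to 19.4 CPM in total RNA and 14.9 to 16.7 CPM in HP RNA, and 5 of them, including PTPRC and PDGFRA, were at 0 throughout. HNRNPU, the target of the other siRNA, stood at 1029, 1123 and 1019 CPM, here of the library total, in total RNA of control cells and at 176, 156 and 169 CPM in that of the silenced cells.

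In control cells 10957 genes differed between HP and total RNA at an adjusted p under 0.05 (edgeR quasi-likelihood test with the experiment as a block, Benjamini-Hochberg adjustment), which is 73.1% of those tested. Of these, 5482 (36.6%) were rich and 5475 (36.5%) were poor in HP RNA, so a call by itself says little about any single gene. Counts of rich and poor members of the lists below are to be read against these shares. Among nuclear protein-coding genes the shares were 42.3% rich and 32.2% poor. Large ratios were one-sided. Only 88 genes (0.587%) were at least 2-fold rich, whereas 1613 (10.8%) were at least 2-fold poor. The smaller count depended on the settings and was 23 at a minimum count of 50, 41 with upper-quartile factors, 139 without the second experiment, 150 without a minimum count and 153 when all 12 libraries were fitted at once. All ratios are given as log2 (HP/total) and are relative to the average gene under TMM scaling. The value after ± is the standard error of the edgeR test, which shares information on variance across genes. It can be smaller than the spread between experiments. For the ferritin gene FTL it was 0.05, where the 3 experiments gave -2.67, -2.99 and -2.66. The ratios do not tell how much RNA the HP fractions held in all. In bulk RNA of this kind, a smaller share of each cell's transcripts in polysomes and a smaller share of cells translating them cannot be told apart.

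Protein-coding and noncoding RNAs had different ratios. Nuclear protein-coding genes had a median log2 ratio of 0.06 (12512 genes, 5291 rich and 4033 poor). Long noncoding RNAs had a median of -0.92, and 1196 of 1790 were poor and 66 rich. The per-experiment medians of the lncRNAs were -0.97, -0.80 and -0.85, against 0.08, 0.05 and 0.06 for the protein-coding genes. Of the lncRNAs, 823 were at least 2-fold poor, more than the 628 protein-coding genes of the nuclear genome in that set. All 6 snoRNAs tested were poor, with a median of -2.60. Processed pseudogenes, which can share reads with their parent mRNAs and are therefore uncertain, stood at a median of 0.17, with 102 rich and 83 poor of 412.

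**Figure D1:**
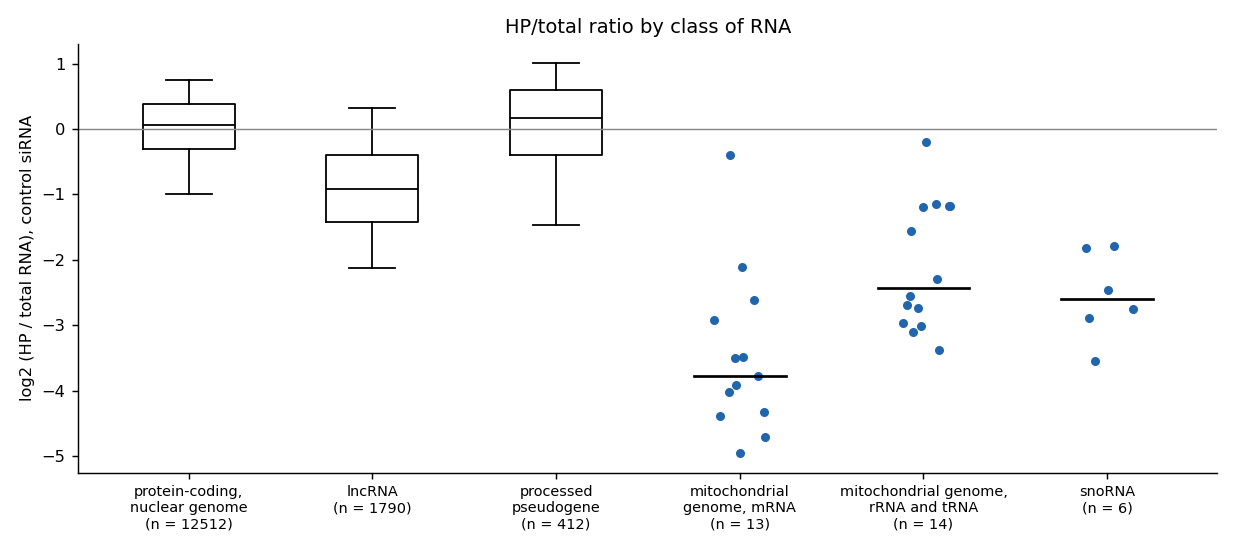
Log2 ratio of HP to total RNA in control cells (y axis) by class of RNA (x axis, with the number of genes); boxes show the quartiles and median with whiskers at the 5th and 95th percentiles, and small classes are shown as single genes with a line at the median. Protein-coding genes centre near 0.06, lncRNAs near -0.92, and the RNAs of the mitochondrial genome tested lie below 0.

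The RNAs made from the mitochondrial genome, which are translated by separate ribosomes inside the organelle, were the poorest class of mRNA. All 13 mRNAs were poor, with a median of -3.78, and 12 of them by at least 2-fold. MT-ND4, a subunit of respiratory complex I, fell from 26356, 27352 and 27143 CPM in total RNA to 1167, 1273 and 1643 CPM in HP RNA. MT-ND3, another complex I subunit, had the lowest ratio, -4.95 ± 0.07. In both genes every HP library lay far below every total RNA library. The light-strand mRNA MT-ND6 stood apart at -0.40 ± 0.04, with 270, 350 and 302 CPM in total RNA and 196, 257 and 243 CPM in HP RNA. The rRNAs MT-RNR1 and MT-RNR2 had ratios of -2.68 ± 0.07 and -3.38 ± 0.06. Mitochondrial RNAs together made up 10.8% to 11.4% of all counts in total RNA and 0.868% to 1.24% in HP RNA. With them left out of counts and totals, 5403 genes were rich and 5548 poor.

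The ferritins, which store iron, were among the mRNAs of the nuclear genome with the lowest ratios, and both carry an iron-responsive element in the 5′ UTR, a hairpin that binds iron regulatory proteins when iron is scarce and blocks initiation. FTL, the ferritin light chain (ENSG00000087086, chr19:48965309-48966879, GRCh38), stood at 1119, 948 and 966 CPM in total RNA and 176, 119 and 152 CPM in HP RNA, a log2 ratio of -2.77 ± 0.05. FTH1, the ferritin heavy chain (ENSG00000167996, chr11:61959718-61967634), stood at 1594, 1464 and 1458 CPM against 320, 247 and 309 CPM, a ratio of -2.37 ± 0.05. The HP and total RNA libraries were far apart for both genes in all 3 experiments. FTH1 shares 1267 exonic bases with BEST1 on the opposite strand, and the strand setting of the counting is not known. SLC40A1, which encodes the iron exporter ferroportin, had a similar ratio of -2.38 ± 0.32, but at means of only 1.15 and 0.223 CPM. Other members of this list did not share the low ratio. The hypoxia factor EPAS1, which also has the element in the 5′ UTR, stood at 0.18 ± 0.05. The call for EPAS1 was lost with upper-quartile factors (0.09, adjusted p = 0.0755, edgeR). The transferrin receptor TFRC, whose elements lie in the 3′ UTR, was at -0.22 ± 0.04, with overlapping groups of 578, 671 and 623 CPM in total RNA and 470, 590 and 548 CPM in HP RNA. Of the 8 list members 4 were poor and 1 was rich (50% and 12.5%, against 36.5% and 36.6% over all genes).

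The windows below are shown because these 4 mRNAs carry the same kind of element and yet differ widely in HP RNA. Each is 30 bases of the canonical transcript of GENCODE 44 in the 5′ UTR, read 5′ to 3′, and the capitals mark a match to CNNNNNCAGTGN, the bulged C and the loop of the hairpin. They lie at chr19:48965332-48965361 (FTL, plus strand), chr11:61967576-61967605 (FTH1, minus strand), chr2:189580663-189580692 (SLC40A1, minus strand) and chr2:46297476-46297505 (EPAS1, plus strand) in GRCh38.
FTL: tgtctcttgCTTCAACAGTGTttggacgga
FTH1: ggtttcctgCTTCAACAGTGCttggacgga
SLC40A1: ttccaacttCAGCTACAGTGTtagctaagt
EPAS1: ccgtacaatCCTCGGCAGTGTcctgagact
The letters alone were common, since 767 of 12498 tested protein-coding genes (6.14%) hold the pattern on the sense strand of the 5′ UTR, and the median ratio of those 767 was -0.02 against 0.07 for the rest. TFRC had 5 matches in its 3′ UTR and none in its 5′ UTR.

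The list of selenoproteins, whose synthesis reads a UGA codon as selenocysteine, held 12 poor and 5 rich of 18 members tested. These shares of 66.7% and 27.8% compare with 36.5% and 36.6% over all genes. SELENOW, a small selenoprotein, had 84.8, 86.1 and 86.8 CPM in total RNA and 13.1, 15.4 and 15.3 CPM in HP RNA, a ratio of -2.56 ± 0.05. The glutathione peroxidases GPX4 and GPX1, which reduce peroxides, stood at -1.45 ± 0.04 and -1.39 ± 0.08. The members that were rich were TXNRD2 (0.80 ± 0.05), the endoplasmic reticulum proteins SELENOS (0.55 ± 0.04) and SELENOK (0.55 ± 0.05), and also TXNRD3 and SELENOO, which were named after their values were seen (0.40 ± 0.06 and 0.36 ± 0.05). The median of the list was -0.45, against -0.02 over all genes tested.

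The 10 poorest protein-coding genes (mean log2 CPM no lower than 3) were, besides FTL, FTH1, SELENOW and the ribosomal protein gene RPS12, the ubiquitin ligase MARCHF2 (-2.24 ± 0.08), the amidase NTAN1 (-2.19 ± 0.08), COMMD6 (-2.10 ± 0.07), LSM10 of the U7 snRNP (-2.08 ± 0.06), the ubiquitin-conjugating enzyme UBE2D4 (-2.04 ± 0.10) and the RNA helicase DDX39B (-2.03 ± 0.06). In each of them all 3 HP libraries lay below all 3 total RNA libraries. The genes were picked for the largest ratios in these same libraries, so this separation adds no support. DDX39B, UBE2D4, NTAN1 and FTH1 overlap neighbouring or readthrough genes, so their counts are uncertain.

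The 10 richest protein-coding genes were compact mRNAs at ratios of 1.10 to 1.30. HMGN5, a nucleosome-binding protein, was highest, with 10.8, 11.0 and 10.8 CPM in total RNA and 27.0, 24.4 and 28.7 CPM in HP RNA (1.30 ± 0.07). BLVRB, biliverdin reductase B, stood at 56.3, 51.3 and 52.8 CPM against 126, 111 and 127 CPM (1.18 ± 0.04). PRDX1, a peroxidase that removes hydrogen peroxide, stood at 942, 950 and 922 CPM against 2037, 1968 and 2068 CPM (1.11 ± 0.04). Its homologue PRDX2 (1.10 ± 0.04), the polyubiquitin gene UBB (1.12 ± 0.04), the mitochondrial ribosomal protein gene MRPL28 (1.15 ± 0.05), the electron transfer flavoprotein ETFB (1.11 ± 0.05), the proteasome subunit PSMB3 (1.11 ± 0.04), the ESCRT-III subunit CHMP2A (1.11 ± 0.04) and the dynein-associated NUDC (1.10 ± 0.04) followed. The groups did not overlap for any of these genes, as could be foreseen from picking the largest ratios in the same libraries. Apart from HMGN5, their order is within about the standard errors. Of 4 genes often used as references, ACTB, GAPDH and HPRT1 were rich, at 0.87 ± 0.04, 0.86 ± 0.04 and 0.85 ± 0.04, and RPLP0 was poor, at -1.37 ± 0.04. In all, 56 nuclear protein-coding genes were at least 2-fold rich. The mRNA of HNRNPU itself was at 0.05 ± 0.04, with a 95% interval of -0.02 to 0.13.

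**Figure D2:**
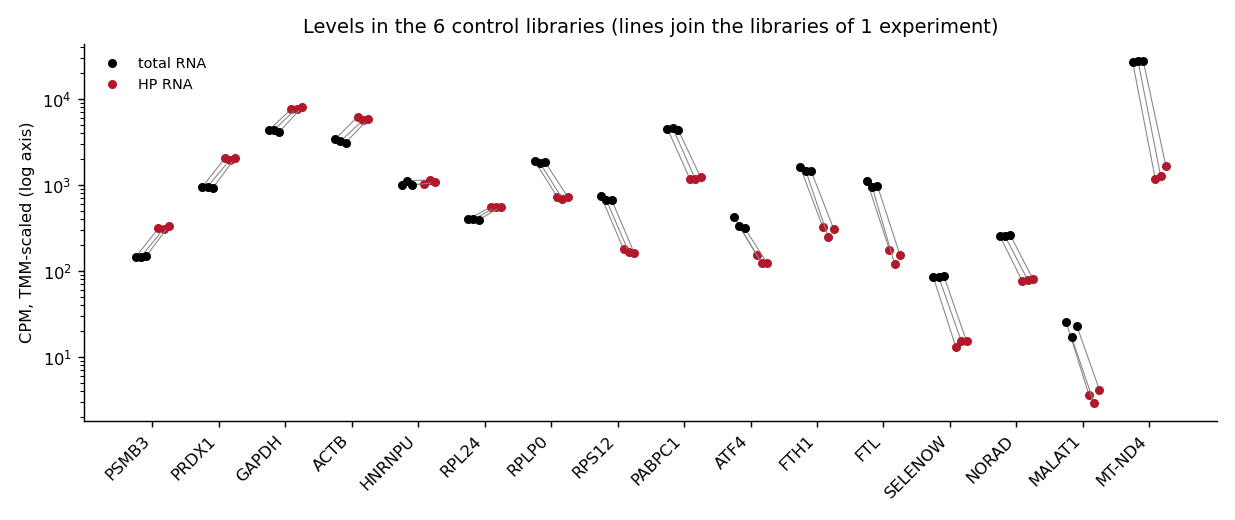
Levels of 16 RNAs in the 6 control libraries, in TMM-scaled CPM on a log axis; black points are total RNA, red points are HP RNA, and lines join the 2 libraries of 1 experiment. PSMB3, PRDX1, GAPDH, ACTB and RPL24 rise and the genes from RPLP0 to MT-ND4 fall in all 3 experiments, while HNRNPU stays level.

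The 56 protein-coding genes at least 2-fold rich with an annotated coding sequence had a median coding length of 786 nt, and 44 of them (78.6%) had at least 600 and under 1500 nt, against 41.4% of all 12498. None was under 300 nt or at least 3000 nt long. Their 3′ UTRs had a median of 217.5 nt against 1330 nt over all genes, and 12.5% had an upstream ATG against 41.1%. The 624 genes at least 2-fold poor were a mixed set, of which 11.4% had a coding sequence under 300 nt against 1.89% of all, and 57.5% had an upstream ATG. They were also weakly expressed, with a median of 2.52 log2 CPM against 4.94 over all protein-coding genes.

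The ratio rose and then fell with coding length. The 236 mRNAs with under 300 nt had a median of -0.76, with 197 poor and 6 rich, the 1681 from 600 to under 900 nt had the highest median, 0.25, and the 1835 with at least 3000 nt had -0.17. Within the last group, the 366 mRNAs of at least 6000 nt stood at -0.39, with 267 poor and 22 rich. The medians of the shortest class were -0.86, -0.67 and -0.78 in the 3 experiments and those of the class from 600 to under 900 nt were 0.27, 0.23 and 0.23. The order of the classes was the same in each of the 3 experiments, although the medians of the neighbouring classes from 600 to under 900 and from 900 to under 1500 nt lay close together, at 0.25 and 0.21.

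Genes at the extremes of length are given as examples. TMSB4X and TMSB10, the thymosins that bind actin monomers, encode very small proteins and stood at -1.43 ± 0.04 and -1.37 ± 0.04, and OST4, a small subunit of oligosaccharyltransferase, at -1.69 ± 0.05. The highest short coding sequences were SELENOK, the centromere protein gene CENPW (0.50 ± 0.08), the cytochrome oxidase subunit COX7B (0.31 ± 0.04) and SERP1 of the endoplasmic reticulum (0.25 ± 0.04), the only ones under 300 nt that met the rule for naming. Among long coding sequences, the kinetochore motor CENPE (-0.97 ± 0.05), fatty acid synthase FASN (-0.93 ± 0.04), topoisomerase TOP2A (-0.86 ± 0.04), the spindle protein ASPM (-0.84 ± 0.05) and the myosin heavy chain MYH9 (-0.64 ± 0.03) were poor. The lowest with at least 1500 nt that met the rule for naming (mean log2 CPM no lower than 3) were PABPC1, the transcription factor ATMIN, with 170, 178 and 169 CPM in total RNA and 46.2, 46.8 and 47.4 CPM in HP RNA (-1.88 ± 0.04), the integrin ITGAE (-1.83 ± 0.09), the kinase MAP3K13 (-1.81 ± 0.07) and PABPC1L (-1.63 ± 0.08).

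Upstream ATGs in the 5′ UTR went with lower ratios in mRNAs of short and medium coding length. Over all lengths the median was 0.20 for the 7359 mRNAs without one and -0.03, -0.13, -0.19 and -0.30 for those with 1, 2, 3 to 5, and more than 5. From 600 to under 1500 nt the medians were 0.37 without an upstream ATG (2190 rich and 488 poor), -0.01 with 1 or 2, and -0.30 with 3 or more (80 rich and 291 poor). At 3000 nt and over they were -0.18, -0.14 and -0.20, with no such order. Longer 5′ and 3′ UTRs also went with lower ratios. For the 3′ UTR, within coding lengths from 600 to under 1500 nt, the median went from 0.40 under 500 nt to 0.06 at 2000 nt or more. These properties are correlated with each other across genes, and their separate parts were not tested. G-quadruplex motifs (4 G-runs, each of 3 or more bases, separated by up to 7 bases) were found in 1045 5′ UTRs, whose median was -0.08 against 0.08 for the rest. By length of the 5′ UTR, the medians with and without the motif were -0.03 and 0.19 under 100 nt, -0.11 and 0.08 from 100 to under 200 nt, -0.07 and -0.03 from 200 to under 400 nt, and -0.09 and -0.10 at 400 nt or more. The motif was also found in 1984 3′ UTRs, with a median of 0.05 against 0.07 for the rest. For the 852 coding sequences that hold it, the median was 0.09 against 0.06. For the GC content of the third codon position, the median at 3000 nt and over was -0.28 below 45% GC and -0.05 at 65% or more, and from 600 to under 1500 nt it was 0.23 and 0.20.

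**Figure D3:**
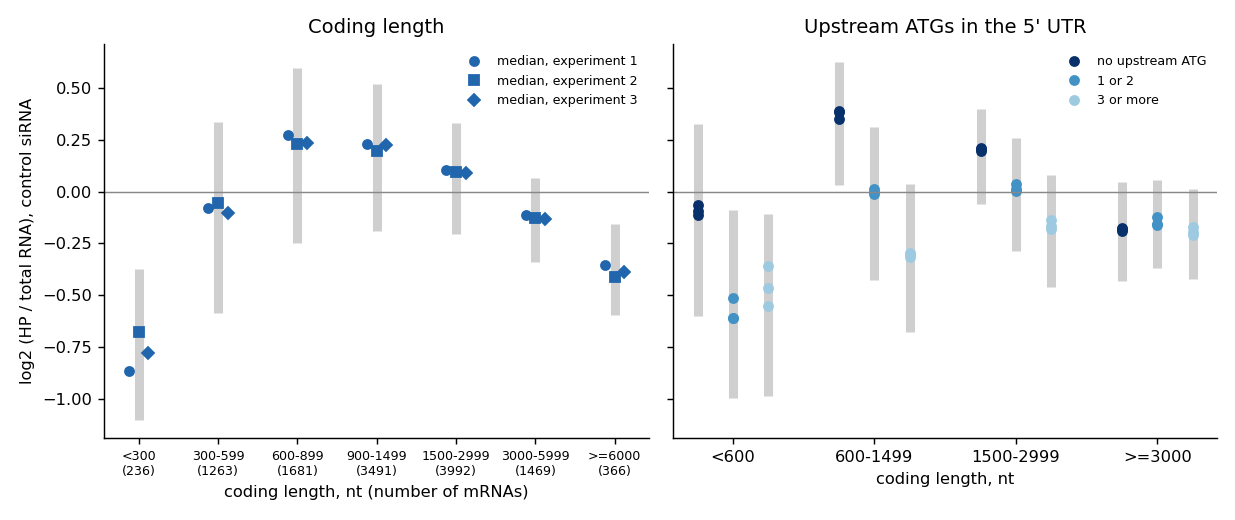
Median log2 (HP/total) of each of the 3 experiments (points) and the quartiles over genes (grey bars) by coding length (left, number of mRNAs in brackets) and by coding length and number of upstream ATGs (right). The medians peak between 600 and 1500 nt, and mRNAs without upstream ATGs lie above those with them under 3000 nt but not at 3000 nt and over.

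Of the 15 tested mRNAs known for regulatory upstream reading frames, 11 were poor and 2 rich. These shares of 73.3% and 13.3% compare with 36.5% and 36.6% over all genes. ATF4, the transcription factor of the integrated stress response, stood at 427, 333 and 316 CPM in total RNA and 154, 124 and 123 CPM in HP RNA (-1.42 ± 0.04). SLC35A4 (-0.94 ± 0.05) and the phosphatase subunit PPP1R15A (-0.83 ± 0.06) were next among those that met the rule for naming. CEBPB, a transcription factor with a regulatory upstream frame, went the other way with 100.6, 72.4 and 74.9 CPM against 166, 110 and 125 CPM (0.69 ± 0.04), and KLHL24 stood at 0.20 ± 0.06 with overlapping groups, a call that was lost under 5 alternatives (adjusted p = 0.0520 to 0.122). The polyamine list, which holds enzymes and antizymes controlled at translation, had 7 poor and 2 rich of 11. These shares of 63.6% and 18.2% compare with 36.5% and 36.6% over all genes. SAT1 (-1.49 ± 0.07), OAZ1 (-0.92 ± 0.04) and OAZ2 (-0.83 ± 0.05) were lowest among those that met the rule. SMS and SMOX stood at 0.30 ± 0.03 and 0.29 ± 0.05.

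The cytosolic ribosomal protein mRNAs, which begin with a terminal oligopyrimidine (TOP) tract that couples them to mTOR signalling, ranged from -2.40 to 0.58. Of 79 tested, 52 were poor and 19 rich, and 15 were at least 2-fold poor, with a median of -0.22. By coding length, 9 of 9 with under 300 nt were poor (median -1.44), 25 of 29 from 300 to under 450 nt (-0.35), 12 of 19 from 450 to under 600 nt (-0.15) and 6 of 22 with 600 nt or more (0.08), against 36.5% poor over all genes. RPS12 stood at 744, 670 and 670 CPM in total RNA and 178, 164 and 162 CPM in HP RNA (-2.05 ± 0.04). RPS27 (-1.87 ± 0.05), RPS29 (-1.83 ± 0.04) and the stalk protein RPLP0 (-1.37 ± 0.04) were also low, although RPLP0 has a coding sequence of 954 nt. FAU (0.58 ± 0.04), RPL24 (0.49 ± 0.03) and RPL8 (0.46 ± 0.04) were highest. Many of these genes have processed pseudogenes that can share reads, which leaves single values uncertain. The other TOP mRNAs had 13 rich and 8 poor of 22 (59.1% and 36.4%, against 36.6% and 36.5% over all genes). PABPC1, the cytoplasmic poly(A)-binding protein, stood at 4493, 4575 and 4373 CPM against 1158, 1160 and 1224 CPM (-1.92 ± 0.04) and the growth factor-like TPT1 at -0.86 ± 0.04. The nucleolar NPM1 (0.84 ± 0.04), BTF3 (0.76 ± 0.04) and COX4I1 (0.68 ± 0.03) were rich.

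The first 20 bases from the RefSeq start (GRCh38.p14) of 4 poor and 3 rich TOP mRNAs are given as chosen examples. Capitals mark the initial run of C and T, and the starts lie at chr6:132814569-132814588 (RPS12, plus strand), chr1:153990762-153990781 (RPS27, plus), chr12:120201092-120201111 (RPLP0, minus), chr13:45341164-45341183 (TPT1, minus), chr11:65122115-65122134 (FAU, minus), chr3:101686699-101686718 (RPL24, minus) and chr5:171387849-171387868 (NPM1, plus, 1 of its 2 RefSeq starts).
RPS12: CTCTTTCCCTgccgccgccg
RPS27: CCTTTCCggcggtgacgacc
RPLP0: CCTTCTCTCgccaggcgtcc
TPT1: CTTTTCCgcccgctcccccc
FAU: CTCTTTCTCgactccatctt
RPL24: CTTTCTTTTCgccatctttt
NPM1: CTTTCCCTggtgtgattccg
The run of pyrimidines was 10, 7, 9 and 7 bases long in the poor mRNAs shown and 9, 10 and 8 in the rich ones. The other RefSeq start of NPM1 has no initial run of C and T. A start with C and then at least 4 of C or T was found in 47 of 63 ribosomal protein genes with a RefSeq start (74.6%) and in 753 of 10168 protein-coding genes (7.41%). Without the ribosomal protein genes the median ratio was 0.03 for the 706 genes with such a start and 0.07 for the 9399 without.

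Several groups of abundant housekeeping mRNAs were rich almost throughout, against 36.6% rich over all genes and 42.3% over nuclear protein-coding genes. Among mRNAs with 600 to under 1500 nt of coding sequence and no upstream ATG, the share was 66.0%. Of the 32 proteasome subunits 29 were rich and 1 poor, with a median of 0.83 and per-experiment medians of 0.86, 0.83 and 0.87. PSMB3, a subunit of the catalytic core, rose from 145, 147 and 150 CPM to 312, 308 and 335 CPM. PSMB1 stood at 1.09 ± 0.03 and the ubiquitin receptor PSMD4 at 1.02 ± 0.04. The single poor subunit, PSMA2, named after its value was seen (-1.68 ± 0.29), overlaps other genes and had a mean log2 CPM of only -0.70. Of 20 glycolysis genes 18 were rich and none poor, with LDHB, TPI1 and PGAM1 at 1.03 ± 0.04, 1.01 ± 0.04 and 0.98 ± 0.04. Of 28 cytosolic chaperones 26 were rich, with HSPB1 at 1.06 ± 0.04, FKBP4 at 0.84 ± 0.03 and the chaperonin subunit CCT7 at 0.82 ± 0.03, and 1, the co-chaperone BAG1 (-0.53 ± 0.05), was poor. Of 22 chaperones and folding enzymes of the endoplasmic reticulum 18 were rich, led by the prolyl isomerase PPIB (0.94 ± 0.04), and the large UGGT1 (-0.37 ± 0.04) was poor.

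Genes of translation and splicing were also mostly rich, against 36.6% rich and 36.5% poor over all genes and 42.3% rich over nuclear protein-coding genes. The shares rich were 69.4% for initiation factors, 78.3% for synthetases and 88.2% for splicing factors and their kinases. Of 36 translation initiation factors 25 were rich, including EIF6 (0.93 ± 0.04), EIF3I (0.87 ± 0.04) and EIF4A3 (0.87 ± 0.03), and 8 were poor, including the inhibitors EIF4EBP2 (-1.04 ± 0.05) and EIF4EBP1 (-0.43 ± 0.04) and the reinitiation factor DENR (-0.37 ± 0.04). Of 23 cytosolic aminoacyl-tRNA synthetases and their scaffolds 18 were rich, among them AIMP2 (0.94 ± 0.04), HARS1 (0.86 ± 0.04) and YARS1 (0.80 ± 0.03), while the long EPRS1 (-0.44 ± 0.03), QARS1 (-0.32 ± 0.05) and LARS1 (-0.25 ± 0.04) were poor. Of 17 SR splicing factors and their kinases 15 were rich, with SRSF3 (0.94 ± 0.04), SRSF7 (0.85 ± 0.04) and SRSF2 (0.78 ± 0.04) highest, and the kinases CLK1 (-0.51 ± 0.06) and CLK4 (-0.30 ± 0.09) poor. The call for CLK4 was lost without the third experiment (-0.20, adjusted p = 0.109, edgeR) and with DESeq2 (-0.29, adjusted p = 0.0572).

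Subunits encoded in the nucleus for mitochondria contrasted with those made in the organelle. Of 79 subunits of oxidative phosphorylation 49 were rich and 21 poor (62.0% and 26.6%, against 36.6% and 36.5% over all genes), with a median of 0.36. They divided by length, since 19 of 21 with a coding sequence under 300 nt were poor and 48 of the 58 longer ones were rich. NDUFB8, NDUFAB1 and NDUFV1 of complex I stood at 0.98 ± 0.05, 0.92 ± 0.04 and 0.92 ± 0.04, and the small subunits ATP5MK, UQCR11 and ATP5F1E at -1.23 ± 0.05, -1.20 ± 0.06 and -1.08 ± 0.05. Of 79 mitochondrial ribosomal proteins 61 were rich and 9 poor (77.2% and 11.4%). MRPL28, MRPL24 (1.07 ± 0.04) and MRPL22 (1.04 ± 0.04) were highest and MRPL33 (-0.98 ± 0.06), MRPL57 (-0.60 ± 0.05) and MRPL20 (-0.42 ± 0.04) lowest. Of 13 mRNAs chosen because RT-qPCR in polysomal fractions also exists for them, 7 were rich, 5 poor and 1, ATP2A2 (0.07 ± 0.03, adjusted p = 0.0700), was not called. Of these 13, 53.8% were rich and 38.5% poor, against 36.6% and 36.5% over all genes. RTN4 was highest among the well-expressed ones at 0.58 ± 0.04, followed by HSPD1 (0.41 ± 0.04), COQ2 (0.35 ± 0.05), GALNT2 (0.32 ± 0.04), MRPL37 (0.25 ± 0.04) and GPD2 (0.10 ± 0.04). GPD2 had overlapping groups and its call was lost under 6 alternatives. AKAP1, a kinase anchor on mitochondria, stood at -0.42 ± 0.04, SLC38A1 at -0.30 ± 0.03, B4GALT1 at -0.17 ± 0.05 and ATP2B1 at -0.15 ± 0.04. PRODH (1.03 ± 0.28) and COX16 (-0.90 ± 0.18) rested on under 4 CPM in every library, and PRODH was not called without the third experiment (0.94, adjusted p = 0.0763, edgeR).

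The counts that follow compare with shares of 36.6% rich and 36.5% poor over all genes, and 42.3% rich over nuclear protein-coding genes. The shares rich were 77.1% for the cytoskeleton, 55.6% for mitotic genes, 59.3% for cholesterol and fatty acid synthesis and 70.0% for the translocon list. Of 35 genes of the actin and tubulin cytoskeleton and keratins 27 were rich, with the actin-severing CFL1 (0.94 ± 0.04), KRT19 (0.90 ± 0.04) and ACTB highest. The 8 poor ones included the thymosins and the long MYH9. Mitotic genes split by length. Of 36, 20 were rich and 9 poor: SPC25 (0.86 ± 0.04), the kinase AURKB (0.85 ± 0.04) and the activator CDC20 (0.83 ± 0.03) were highest, whereas none of the 9 with a coding sequence of at least 3000 nt was rich and 6 were poor. Cholesterol and fatty acid synthesis had 16 rich and 5 poor of 27, with FDPS (0.80 ± 0.04), FDFT1 (0.77 ± 0.04) and IDI1 (0.70 ± 0.04) above and FASN and ACACA (-0.40 ± 0.04) below. The translocon and signal recognition list had 21 rich and 6 poor of 30, with SRP14 (0.73 ± 0.04), DDOST (0.68 ± 0.04) and SPCS2 (0.65 ± 0.05) highest and OST4, SEC61G (-0.87 ± 0.07) and TRAM1 (-0.47 ± 0.04) lowest.

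The lists of regulatory genes differed, against shares of 36.6% rich and 36.5% poor over all genes. Of 351 zinc-finger genes with the symbol ZNF and a number, 165 were poor and 58 rich (47.0% and 16.5%), with a median of -0.20. ZNF532 (-1.23 ± 0.08), ZNF358 (-1.21 ± 0.07) and ZNF621 (-1.14 ± 0.06) were lowest, and ZNF330 (0.93 ± 0.04), ZNF622 (0.82 ± 0.05) and ZNF207 (0.61 ± 0.03) highest. Of 25 immediate early genes 14 were rich and 6 poor, from IER5 (0.70 ± 0.04), FOSL1 (0.55 ± 0.04) and ATF3 (0.53 ± 0.06) down to BTG1 (-0.64 ± 0.06), EGR1 (-0.68 ± 0.07) and JUND (-0.78 ± 0.05). The groups overlapped for ATF3 and EGR1, and EGR1 was not called without the block (adjusted p = 0.147). Of 24 targets of p53 17 were rich and 4 poor. TP53I3, FDXR and the secreted GDF15 stood at 0.81 ± 0.06, 0.80 ± 0.04 and 0.77 ± 0.04, and BAX, the ubiquitin ligase MDM2 and the short PMAIP1 at -0.44 ± 0.04, -0.56 ± 0.03 and -0.72 ± 0.06. Of 17 histone genes picked by symbol as replication-dependent, whose mRNAs mostly lack a poly(A) tail, 12 were not called and 14 had a mean log2 CPM under 3. H1-10 (0.99 ± 0.04), which was rich, is a linker histone with a polyadenylated mRNA and does not belong to that class.

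**Figure D4:**
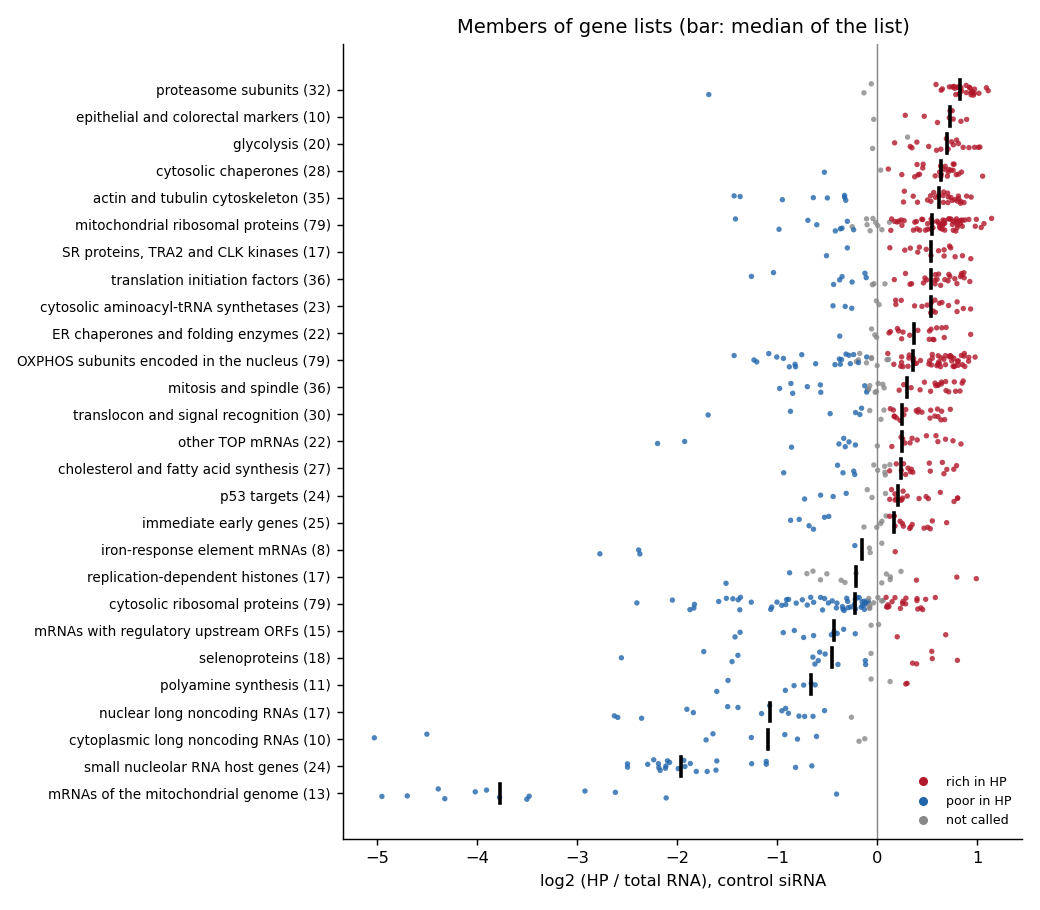
Log2 (HP/total) in control cells (x axis) of each member tested of 27 gene lists (y axis, number of members in brackets), coloured by call, with a bar at the median of the list. Proteasome, glycolysis and chaperone genes lie mostly right of 0, and snoRNA host genes and mitochondrial mRNAs lie wholly left of it.

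Over all lncRNAs tested, 66.8% were poor, 46.0% were at least 2-fold poor and 3.69% were rich. All 24 snoRNA host genes tested were poor, 22 of them by at least 2-fold, with a median of -1.96. These genes carry snoRNAs in their introns, and their spliced exons mostly encode no known protein. SNHG29 (ENSG00000175061, chr17:16438767-16480249) stood at 625, 572 and 585 CPM in total RNA and 124, 126 and 129 CPM in HP RNA (-2.23 ± 0.04), and SNHG6 and SNHG19 at -2.50 ± 0.05 and -2.50 ± 0.13. Of 17 nuclear lncRNAs 16 were poor and none rich, with a median of -1.07. Whether total RNA was taken from whole cells or from the cleared lysate is not given in the sources used here, and the ratio of a nuclear RNA depends on it. MALAT1, a transcript of nuclear speckles (chr11:65497640-65508073), had 25.3, 17.1 and 22.9 CPM against 3.68, 2.90 and 4.16 CPM (-2.59 ± 0.08). It overlaps other genes by 8731 exonic bases on the opposite strand, and the strand setting of the counting is not known, so its counts are uncertain. NEAT1, the scaffold of paraspeckles (chr11:65422774-65445540), had 90.5, 76.0 and 85.6 CPM against 15.9, 15.7 and 17.5 CPM (-2.35 ± 0.05). Their HP libraries lay below the total RNA libraries throughout, yet neither was at 0 in HP RNA. Of 10 cytoplasmic lncRNAs 8 were poor and none rich, against 66.8% poor and 3.69% rich over all lncRNAs. NORAD, which binds Pumilio proteins, had 255, 253 and 260 CPM against 76.0, 79.0 and 79.8 CPM (-1.71 ± 0.04). NBDY and SMIM30, on that list and counted among the 8 poor although they encode small proteins, stood at -0.92 ± 0.07 and -0.80 ± 0.06. Further lncRNAs among the lowest were DLEU2 (-2.34 ± 0.10), CRNDE (-2.31 ± 0.15) and LINC01315 (-2.22 ± 0.14), and OIP5-AS1 stood at -1.90 ± 0.04.

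Few lncRNAs were rich, and the 8 highest (mean log2 CPM no lower than 1) had no gene symbol. ENSG00000263731 (chr17:81878425-81881106), which overlaps ENSG00000263859, had 27.0, 26.2 and 25.1 CPM in total RNA and 52.4, 54.1 and 56.8 CPM in HP RNA (1.06 ± 0.05). ENSG00000263272 (1.03 ± 0.19) shares exonic bases with C1QBP and RPAIN, and ENSG00000258768 (0.66 ± 0.14) with TTC5. The other highest lncRNAs were ENSG00000276529, ENSG00000260257, ENSG00000276390, ENSG00000291113 and ENSG00000288829, at 0.63 to 0.74. Whether reads of overlapping genes or a coding sequence lie behind these values was not tested.

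The same ratio was measured in the 6 libraries of cells given the hnRNP U siRNA, which share no sample with the control libraries. There 73.2% of the genes were called, and across 14990 genes the ratios of the 2 siRNAs had Pearson's r = 0.92 and Spearman's rho = 0.94, as a description across genes that are not independent. Of the 10957 genes called in control cells 9763 (89.1%) were called in the same direction and 17 in the other. Of the 1701 at least 2-fold, 1552 (91.2%) were called in the same direction and none in the other. The ratio itself differed between the siRNAs for 183 genes (1.22%), 28 higher and 155 lower after hnRNP U silencing. This split depended on scaling and was 44 higher and 60 lower with the size factors of DESeq2. FTL, SELENOW, PSMB3 and NEAT1 were at -2.99, -2.41, 1.15 and -2.24 in the silenced cells and were not called as different.

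**Figure D5:**
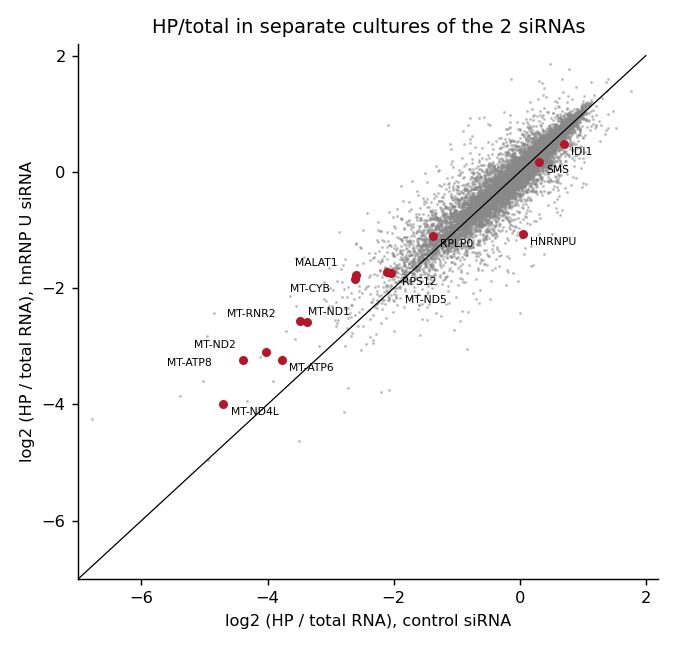
Log2 (HP/total) in control siRNA cells (x axis) against hnRNP U siRNA cells (y axis) for 14990 genes, with the line of equality; red points are the 14 named genes whose ratio differed between the siRNAs. Most genes lie on the line, HNRNPU lies below it, and several RNAs of the mitochondrial genome and MALAT1 lie above it.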

How the data were processed

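HCT116 cells were transfected for 48 h with a control siRNA or an siRNA against hnRNP U, and total RNA and HP RNA were sequenced (3 experiments, poly(A)-selected directional libraries, 75 bp single reads). The authors used Trim Galore (quality cutoff of 30, reads of at least 18 nt kept), aligned the reads with STAR to hg38 and deposited raw counts per gene of GENCODE 43. The submitters' processing notes also name CASAVA 1.8. The version of STAR and the strand setting of the counting are not given in the sources used here, so overlapping antisense genes are uncertain.

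Genes were filtered with filterByExpr (minimum count 10), scaled by TMM and tested with edgeR 4.0.16 in R 4.3.3 (quasi-likelihood test, Benjamini-Hochberg, threshold 0.05, at least 2-fold as a second rule). The experiment was a block. HP and total RNA libraries with the same experiment name in their titles were taken as pairs, and their deviations from the group means correlated at 0.155, 0.183 and 0.147. Levels are CPM scaled by TMM. Standard errors and 95% intervals came from the edgeR test, which shares information on variance across genes. The ratio of a single experiment can lie outside the interval. Difference between siRNAs was an interaction term over 12 libraries. DESeq2 1.42.0 was an alternative. Gene features came from canonical transcripts of GENCODE 44 on the same build, and splitting coding sequences at 6000 nt was chosen after seeing the data. Scripts were tested on simulated counts.

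Named genes were the 10 protein-coding genes each way with the largest ratios (mean log2 CPM of at least 3, same sign in each experiment), 8 lncRNAs each way (at least 1), up to 3 called members each way of each list, all mitochondrial list members, the 5 lowest with at least 1500 nt and the 5 highest with under 300 nt of coding sequence, and reference and RT-qPCR genes. The members and lists were chosen with earlier results of these data known. The study describes the experiments as independent. The p-values rest on the spread between 3 of them in 1 cell line, with information on variance shared across genes. Some genes that met the rule are not reported here.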

Additional observations from a re-analysis of the deposited data

Results flagged for a closer look

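The ratio of HP to total RNA of 14 named genes differed between the hnRNP U and control siRNAs by a test of the difference itself (edgeR interaction term, adjusted p under 0.05 over 14990 genes). HNRNPU, the silenced gene, was lower by a log2 difference of -1.17 after silencing. MALAT1, whose counts are uncertain because of its overlap on the opposite strand, was higher by 0.76. Of the RNAs of the mitochondrial genome, MT-ATP8 was higher by 1.09, MT-ND2 by 0.87, MT-ND1 by 0.87, MT-RNR2 by 0.74, MT-CYB by 0.72, MT-ND4L by 0.65, MT-ATP6 by 0.49 and MT-ND5 by 0.33. RPS12 and RPLP0 were higher by 0.26 and 0.22. IDI1 was lower by -0.28 and SMS by -0.19. The number of the 14 still called was 6 without the block, 9 with DESeq2, 13 with the size factors of DESeq2 in edgeR, and 7, 9 and 10 without experiment 1, 2 and 3. Groups of 3 libraries were too small for a check of single libraries that stand apart.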

How the results depend on the processing

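In control cells the numbers of rich and poor genes stayed within 1.5 times of 5482 and 5475 under all 12 alternatives. The number of genes at least 2-fold rich was 88 and moved to 41 with upper-quartile factors, 52 with library totals only, 150 with no filter on low counts, 23 with a minimum count of 50, 153 with all 12 libraries in 1 fit, and 73 to 139 without 1 experiment. The number at least 2-fold poor moved from 1613 to 953 with a minimum count of 50, which also left 514 poor and 35 rich lncRNAs. Under that minimum fewer genes are tested. Upper-quartile factors moved the median of all genes by -0.09 on the log2 scale. Without the replicate block (the pairing by experiment), 5063 genes were rich and 5087 poor. The numbers for the difference between siRNAs (28 higher, 155 lower) were less stable. They were 9 and 25 without the replicate block, 44 and 60 with the size factors of DESeq2, 28 and 40 with DESeq2, and 13 to 22 and 15 to 51 without 1 experiment, and the cause was not tested. Against all protein-coding genes, mRNAs with a coding sequence of at least 3000 nt had a median log2 ratio of -0.23, ranging from -0.24 to -0.23 without 1 experiment, and of -0.45 at 6000 nt and over, an alternative added after seeing the data. Those without an upstream ATG were at 0.13 to 0.14 without 1 experiment. For the 196 named genes, 2309 of 2336 alternative values kept direction and call, 23 lost the call, 4 gained it and none reversed. Those that lost it under some setting were CLK4, COL1A1, EGR1, B4GALT1, GPD2, EPAS1, KLHL24 and PRODH.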
